A study of Mus musculus with 577 samples.

Results

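Granulosa cells that touched the oocyte were compared with granulosa cells of the follicle that did not, in single cells whose cDNA was made with SMART-Seq v4 in its 3′ differential expression (DE) format. These were 73 of the 577 samples of the series, and they were chosen as all granulosa cells of that kit whose sample label gave the class Neighboring or Non-neighboring. Neighboring cells were those lying directly on the oocyte, and both classes were taken from secondary-to-early antral follicles. Ovaries of 8-week-old female mice, with no strain or genotype in the labels, were snap-frozen, cut at 15 μm, fixed in alcohol and stained with cresyl violet. Single cells were then cut out by laser capture microdissection (LCM) and catapulted into lysis buffer. The kit's own lysis buffer was used for 17 neighboring and 17 non-neighboring cells, labelled Dm. Lysis by DRaqL, in which a strong detergent opens the cell and is quenched by a mild one before cDNA synthesis, was used for 20 neighboring and 19 non-neighboring cells, labelled Dp. A further 33 oocytes in the same table, taken from primary and secondary-to-antral follicles, served as the reference for oocyte transcripts.

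The study states that sections of the same ovary were used for both lyses. Each class of cells therefore counted as 1 sample of 1 ovary. Values are given with their spread over cells and over library pools, and no test between the classes was made. The cells were spread over 8 library pools, 4 for each lysis, and every pool held cells of both classes and no oocyte. Within every pool the neighboring cells carried the in-line indices 1 to 5 and the non-neighboring cells the indices 6 to 10. Position and index set therefore cannot be told apart in these libraries, and oocytes that carried the same indices are set beside the results below.

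Granulosa cells nourish the oocyte and talk with it in both directions. Thin granulosa cell extensions, the transzonal projections, cross the zona pellucida and end in gap junctions on the oocyte. The oocyte in turn secretes GDF9 and BMP15, which act on the adjacent granulosa cells through receptors and SMAD proteins of the TGF-β family. Cells near the oocyte become cumulus cells, which divide, whereas mural cells at the follicle wall acquire the LH receptor and steroid-producing enzymes. Theca cells and fibroblasts lie outside the follicle, beyond a basement membrane.

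Reads on protein-coding genes ranged from 155613 to 6749468 in the kit lysis, with a median of 453680, and from 198750 to 1462136 in the DRaqL lysis, with a median of 533447. Between 3702 and 12819 protein-coding genes had reads in a cell. The medians were 5503 genes in neighboring and 5736 genes in non-neighboring cells of the kit lysis, and 7920.5 and 9032 genes in the DRaqL lysis. Across genes, Pearson's r between cells of the same library pool was 0.552 on average for the same position and 0.550 for different positions. The highest r of any pair of cells was 0.728.

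The labelled cell type was checked with Inha, which encodes the inhibin α subunit secreted by granulosa cells. Inha had reads in all 73 cells, between 299.7 and 5629 RPM (reads scaled to the same total of protein-coding reads in every cell), with a median of 2703 RPM. In the 33 oocytes it lay between 12.9 and 466 RPM, with a median of 142 RPM. Group medians were 2078 RPM in neighboring and 2229 RPM in non-neighboring cells of the kit lysis, and 3111 and 3037 RPM in the DRaqL lysis, with wide overlap. Reads summed over the cells gave 2191 RPM (95% exact Poisson interval 2159 to 2222) and 2349 RPM (2324 to 2373) in the kit lysis, and 3317 RPM (3283 to 3351) and 3457 RPM (3425 to 3489) in the DRaqL lysis. These intervals cover counting error only, since the reads came from amplified cDNA without molecular identifiers. On the log2(RPM+1) scale the mean difference, neighboring minus non-neighboring, was 0.19 in both lyses, and neighboring cells were higher in 4 of 8 library pools. Of 15 granulosa markers 13 passed the filter on low values described below, and 7 of them were higher in neighboring cells, with a median of 0.19. Their combined differences ran from -0.78 for Inhba to 1.13 for Fst. Without 13 non-neighboring cells rich in theca and stroma transcripts, described below, 5 of 13 were higher, with a median of -0.19. Inhba, Gatm and Cyp19a1 were sparse, with reads in at most 9 of 19 cells of any group.

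For every protein-coding gene, the mean log2(RPM+1) of non-neighboring cells was subtracted from that of neighboring cells inside each lysis, and the combined difference is the mean of the 2 lysis values. A gene was called past 2-fold when it differed by more than 1 on the log2 scale in the same direction in both lyses, which is a rule of size and not a test. Of 10392 genes with a mean of at least 1, 232 (2.23%) were higher in neighboring cells and 486 (4.68%) in non-neighboring cells by this rule. The median over all genes tested was -0.15, so that all lists below are read against a value slightly below 0. Counts of list genes past 2-fold are read against the shares of 2.23% and 4.68%. Pearson's r between the differences of the lyses, taken across genes, was 0.185, and between single library pools of different lyses r lay between -0.021 and 0.166. The plot of all genes shows where the groups described below fall.

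**Figure D1:**
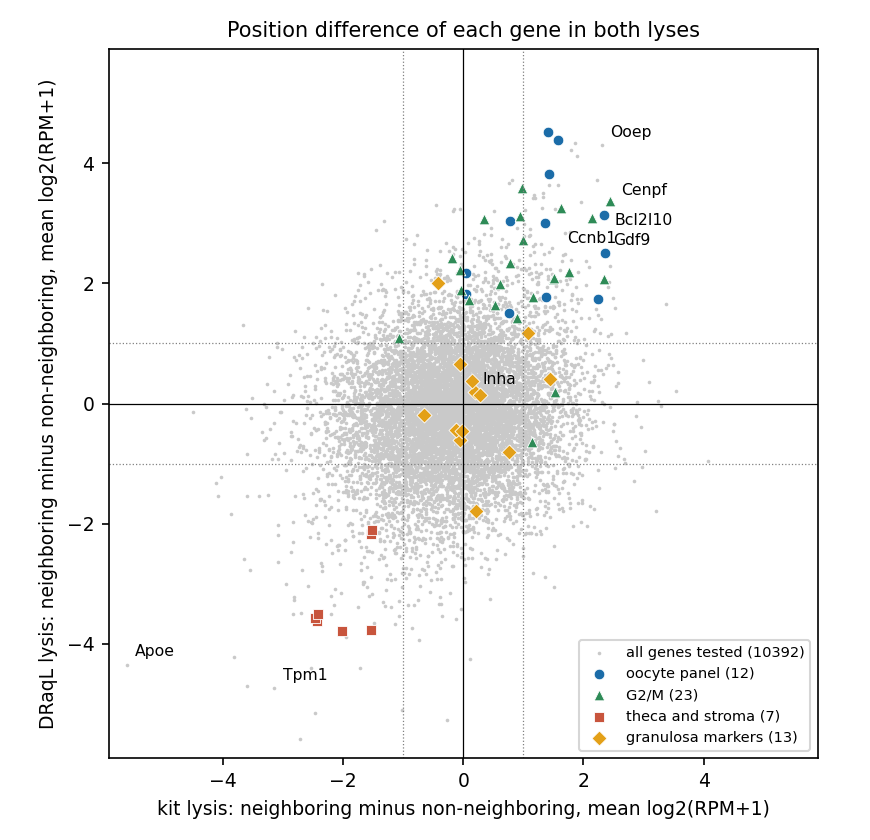
Position difference of each of 10392 genes, as mean log2(RPM+1) of neighboring minus non-neighboring granulosa cells, in the kit lysis (x axis) and the DRaqL lysis (y axis), with dotted lines at a difference of 1. Oocyte and G2/M genes lie mostly above and to the right of 0, theca and stroma genes in the lower left, and granulosa markers on both sides of 0.

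Oocyte transcripts were held in larger amounts by neighboring cells in both lyses. A panel of 14 oocyte genes was used, which the study names for oocyte growth or which encode the zona pellucida. Summed over the panel, neighboring cells of the kit lysis ranged from 2.74 to 14383 RPM with a median of 1111 RPM, and non-neighboring cells from 0 to 11502 RPM with a median of 38.4 RPM. In the DRaqL lysis, neighboring cells ranged from 8.05 to 3446 RPM with a median of 423 RPM, and non-neighboring cells from 0 to 374 RPM with a median of 5.00 RPM. The classes overlapped in both lyses, less so with DRaqL. The median oocyte had 25780 RPM in the kit lysis and 25099 RPM in the DRaqL lysis. As log2(RPM+1) of the sum, the difference was 2.49 in the kit lysis and 5.59 in the DRaqL lysis, and 7 of 8 library pools had the higher mean in neighboring cells, with pool values between -1.21 and 7.27.

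**Figure D2:**
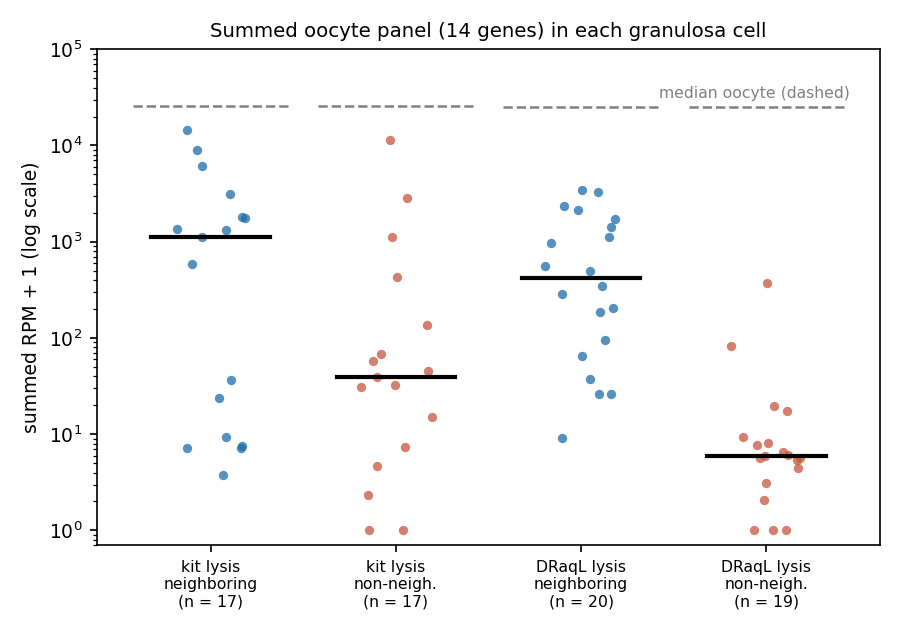
Summed RPM + 1 of the 14 oocyte panel genes (log scale) in each granulosa cell, by lysis and position, with black lines at the group medians and dashed lines at the median oocyte of the same lysis. Neighboring cells reach 14383 RPM in the kit lysis and 3446 RPM in the DRaqL lysis, and the medians of non-neighboring cells are 38.4 and 5.00 RPM.

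Gdf9, the growth factor through which the oocyte steers its granulosa cells, had reads in 13 of 17 neighboring cells of the kit lysis, from 0 to 4771 RPM with a median of 29.9 RPM. It had reads in 11 of 17 non-neighboring cells, from 0 to 1234 RPM with a median of 2.27 RPM. In the DRaqL lysis, 9 of 20 neighboring cells had Gdf9 reads, up to 931 RPM, against 1 of 19 non-neighboring cells, at 178 RPM. Many neighboring cells were thus at 0, and the high values came from some of them. Reads summed over cells gave 672.5 RPM (95% exact Poisson interval 655 to 690.3) against 102.8 RPM (97.75 to 108.05) in the kit lysis and 70.3 RPM (65.5 to 75.5) against 4.79 RPM (3.66 to 6.15) in the DRaqL lysis. The log2 difference was 2.36 and 2.51, and within library pools neighboring cells were higher in 6 of 8, level at 0 in 1 and lower in 1 (mean difference 2.53 ± 1.99, SD over 8 pools).

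Bcl2l10, an oocyte member of the BCL2 family of survival regulators, had reads in 7 of 17 neighboring and 2 of 17 non-neighboring cells of the kit lysis. In the DRaqL lysis these numbers were 11 of 20 and 1 of 19. The highest cells had 955 and 428 RPM in the kit lysis, and 303 and 21.8 RPM in the DRaqL lysis. Its log2 difference was 2.35 and 3.14, and it was higher in neighboring cells in 8 of 8 library pools, by 0.63 to 5.10. Over both lyses, 18 of 37 neighboring cells (48.6%, 95% Clopper-Pearson interval 31.9 to 65.6%) and 3 of 36 non-neighboring cells (8.33%, 1.75 to 22.5%) had Bcl2l10 reads. Clopper-Pearson intervals here and below treat cells as independent draws, whereas the cells came from 1 ovary. They are therefore no test between the classes.

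Of the 14 panel genes, 12 passed the filter on low values, all 12 had a positive combined difference and 8 were past 2-fold, with a median of 2.09. The 2 genes below the filter, Izumo1r and Obox3, had combined differences of 0.81 and 0.37. Besides Gdf9 and Bcl2l10, the 8 included Zp2, a zona pellucida protein (2.25 in the kit lysis and 1.74 in the DRaqL lysis), and H1foo, the oocyte linker histone (1.57 and 4.39). They also included the homeobox genes Obox1 (1.40 and 4.52) and Obox2 (1.43 and 3.82) and the oogenesin genes Oog1 (1.36 and 3.00) and Oog3 (1.38 and 1.77). Obox and Oog genes are families of near-identical copies, and how reads were split among their members is uncertain. Zp3 differed by 0.04 in the kit lysis and 1.82 in the DRaqL lysis, Oosp1 by 0.04 and 2.16, and Bmp15, the partner of GDF9, by 0.76 and 1.51, so that these were not past 2-fold in both. Of the 8 genes, all but Zp2 are also on the study's own list for neighboring cells, which was drawn from other cells of this ovary, so their direction is not independent of that choice.

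Most cells held far less of the panel than the median oocyte, but the ranges met: the 3 highest granulosa cells, all of the kit lysis, had 55.8%, 44.6% and 35.1% of it, and primary oocytes of that lysis ranged from 2986 to 14977 RPM. Every neighboring cell had at least 1 panel gene with reads, and 31 of 36 non-neighboring cells did (86.1%, 95% Clopper-Pearson interval 70.5 to 95.3%). In the DRaqL lysis, neighboring cells had reads for a median of 6 of 14 panel genes and non-neighboring cells for 2, and in the kit lysis for 5 and 4, whereas oocytes had 13 and 14. Gene by gene, the mean level in neighboring cells was compared with that in secondary-to-antral oocytes. It had a median of 8.67% of the oocyte level in the kit lysis and 3.66% in the DRaqL lysis. In non-neighboring cells it was 2.51% and 0.0749%. A panel sum of at least 1% of the median oocyte was reached by 22 of 37 neighboring cells (59.5%) and 5 of 36 non-neighboring cells (13.9%). A sum of at least 10% was reached by 6 neighboring cells (16.2%, 95% Clopper-Pearson interval 6.19 to 32.01%) and 2 non-neighboring cells (5.56%, 0.680 to 18.7%).

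These 8 cells had between 536 and 5533 RPM of Inha and between 3520 and 9070 RPM over 15 granulosa markers, against a median of 928 RPM in oocytes. They came from 6 of the 8 library pools. Without them, 7 panel genes passed the filter, all 7 had a positive difference, 2 were past 2-fold and their median was 2.04 (0.67 in the kit lysis). They passed it through the class in which they were high, and the median over all 14 members went from 1.95 to 1.33. Panel sums then had medians of 35.5 RPM in neighboring and 31.8 RPM in non-neighboring cells of the kit lysis, and 315 and 5.00 RPM in the DRaqL lysis. The kit lysis medians thus lay close together without these cells, and the DRaqL lysis medians did not. The 8 cells were picked by the panel sum itself, and the kept kit cells reached 1787 RPM in neighboring and 1118 RPM in non-neighboring cells. In the kit lysis, 10 of 17 neighboring and 4 of 17 non-neighboring cells had at least 1% of the median oocyte. Of these, 4 and 2 were among the 8 cells left out. The part of oocyte material cut along with a granulosa cell in these values was not tested.

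Of 29 other oocyte genes, 23 passed the filter, all 23 had a positive combined difference and 14 were past 2-fold, with a median of 1.68. They passed it largely through neighboring cells. The 6 below the filter had combined differences between 0.18 and 0.87, and the median over all 29 was 1.58. The largest was Ooep, which encodes a protein of the subcortical maternal complex needed by the early embryo (2.31 and 4.30). It had reads in 10 of 17 neighboring and 6 of 17 non-neighboring cells of the kit lysis, and in 15 of 20 and 5 of 19 cells of the DRaqL lysis. Neighboring cells reached 1959 and 849 RPM, and non-neighboring cells 169 and 32.1 RPM. Fbxw14, an F-box gene of an oocyte cluster (1.89 and 4.12), Tcl1, a coactivator of AKT kinase (1.79 and 4.21), and Dppa3, a maternal factor that protects the methylation of the egg's genome (1.77 and 2.10), were also past 2-fold. Khdc1b, of a family of oocyte genes with several close copies, was among the 10 genes with the largest differences (2.23 and 3.71). Ddx4, the germ cell RNA helicase, was the exception in kind, since all 73 granulosa cells had reads for it, with medians of 1152 and 725 RPM in neighboring and non-neighboring cells of the kit lysis and of 668 and 350 RPM in those of the DRaqL lysis. The median of secondary-to-antral oocytes was 297 RPM. Without the 8 cells with the most oocyte transcripts, 18 other oocyte genes passed the filter and 4 were past 2-fold, with a median of 1.26.

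The promoter of Ooep is shown as that of the oocyte gene with the largest difference outside the panel, from 250 bases before to 50 bases after the gene start. It lies at chr9:78378539-78378838 on the minus strand of GRCm38.p6 in RefSeq. Capitals mark the element TAATTG, bound by the oocyte factor NOBOX and present here on the reverse strand, and the E-box CANNTG, which the oocyte factor FIGLA can bind.
Ooep: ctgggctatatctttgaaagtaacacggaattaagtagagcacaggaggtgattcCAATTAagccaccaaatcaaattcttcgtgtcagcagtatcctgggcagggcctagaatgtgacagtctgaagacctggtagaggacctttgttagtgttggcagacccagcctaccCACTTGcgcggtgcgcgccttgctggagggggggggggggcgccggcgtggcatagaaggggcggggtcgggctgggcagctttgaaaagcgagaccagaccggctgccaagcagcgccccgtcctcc
The first of these starts 195 bases before the gene start and the second 78 bases before it. Over 39 promoters of 33 panel and other oocyte genes, 4 (10.3%) held TAATTG on either strand, against 8.00% of all 32851 promoters. For CANNTG these shares were 92.3% and 72.3%, and the motifs can overlap. A match of letters is a description and shows no binding.

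Genes of cell division formed the other group that was higher in neighboring cells. Of 23 genes of the G2 and M phases, 8 were past 2-fold in both lyses, where 2.23% of all genes were. All 23 had a positive combined difference, with a median of 1.56 (0.97 in the kit lysis and 2.09 in the DRaqL lysis). Their summed level in the kit lysis ranged from 256 to 12243 RPM with a median of 3357 RPM in neighboring cells, and from 28.1 to 5890 RPM with a median of 2416 RPM in non-neighboring cells. In the DRaqL lysis it ranged from 1399 to 9374 RPM with a median of 4486 RPM in neighboring cells, and from 27.7 to 7330 RPM with a median of 1084 RPM in non-neighboring cells. The upper ends of the classes overlapped, whereas cells with little of these transcripts were mostly non-neighboring. At least 1000 RPM were reached by 34 of 37 neighboring cells (91.9%, 95% Clopper-Pearson interval 78.1 to 98.3%) and by 19 of 36 non-neighboring cells (52.8%, 35.5 to 69.6%). On the log2 scale the sum differed by 1.64 in the kit lysis and 1.92 in the DRaqL lysis, and it was higher in neighboring cells in 8 of 8 library pools, by 0.05 to 4.78.

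**Figure D3:**
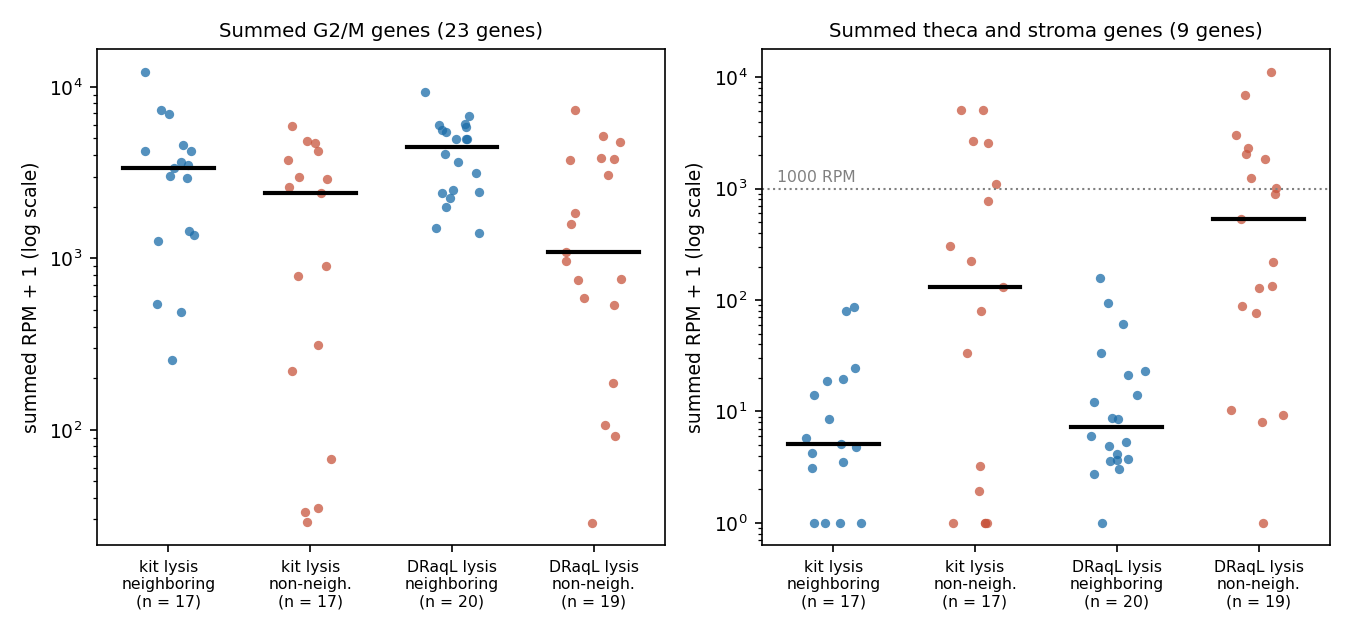
Summed RPM + 1 (log scale) of 23 G2/M genes (left) and of 9 theca and stroma genes (right) in each granulosa cell, with black lines at the group medians and a dotted line at 1000 RPM. The G2/M sum lies under 1000 RPM in 3 neighboring and 17 non-neighboring cells, and the theca and stroma sum exceeds 1000 RPM in non-neighboring cells.

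Cenpf, a kinetochore protein made in G2, ranked first for neighboring cells when genes were ordered by the smaller of their differences in the lyses (2.45 in the kit lysis and 3.37 in the DRaqL lysis). It had reads in 12 of 17 neighboring and 7 of 17 non-neighboring cells of the kit lysis, and in 20 of 20 and 12 of 19 cells of the DRaqL lysis. Its medians were 48.98 and 0 RPM in the kit lysis, and 261 and 5.02 RPM in the DRaqL lysis. Ccnb1, the cyclin B1 that drives entry into mitosis, had medians of 44.8 RPM in neighboring and 0 RPM in non-neighboring cells of the kit lysis, and of 118 and 16.5 RPM in the DRaqL lysis. Its differences were 2.14 and 3.09, and it was higher in neighboring cells in 8 of 8 pools, by 0.17 to 4.96. Ccnb1 has processed copies in the mouse genome, and how reads were split among them is uncertain.

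Cdc20, which activates the anaphase-promoting complex, differed by 2.35 and 2.06, although 3 of 8 pools had the higher mean in non-neighboring cells. Mki67, the proliferation marker Ki-67, had medians of 264 and 26.8 RPM in the kit lysis, and of 396 and 48.0 RPM in the DRaqL lysis (differences 1.63 and 3.25). The other 4 past 2-fold were the spindle motor Kif11 (1.76 and 2.19), the spindle protein Nusap1 (1.50 and 2.09), the ubiquitin enzyme Ube2c (1.49 and 2.08) and the checkpoint kinase Bub1b (1.16 and 1.77). Cenpe, a kinetochore motor, differed by -1.07 in the kit lysis and 1.08 in the DRaqL lysis. Top2a, the topoisomerase of dividing cells, differed by 0.52 and 1.63.

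The G2/M list was recomputed without the 8 cells rich in oocyte transcripts. Then 13 of 23 genes were past 2-fold with a median of 1.82. Oocytes had a median G2/M sum of 4518 RPM. Of 15 S phase genes tested, 12 had a positive difference, with a median of 0.64. Past 2-fold were 2 of them, where 2.23% of all genes were. These were Uhrf1, which carries DNA methylation through replication (1.29 and 2.66), and Rrm1, a subunit of ribonucleotide reductase (1.96 and 1.42). None of 4 tested G1 cyclins and inhibitors was past 2-fold. Hist1h1e, a linker histone gene, was among the 10 largest (2.04 and 1.97), with the caveat that histone genes of the cluster are similar in sequence.

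Promoters of mitotic genes are known for a CCAAT box, bound by NF-Y, and for the CHR element TTTGAA, through which the DREAM and MuvB complexes act. The promoters of Cenpf, Ccnb1 and Cdc20, the G2/M genes among the 10 largest, are shown from 250 bases before to 50 bases after the gene start, with CCAAT and TTTGAA in capitals on whichever strand they occur. Cenpf lies at chr1:189688037-189688336, Ccnb1 at chr13:100786437-100786736 and Cdc20 at chr4:118437294-118437593, all on the minus strand of GRCm38.p6 in RefSeq.
Cenpf: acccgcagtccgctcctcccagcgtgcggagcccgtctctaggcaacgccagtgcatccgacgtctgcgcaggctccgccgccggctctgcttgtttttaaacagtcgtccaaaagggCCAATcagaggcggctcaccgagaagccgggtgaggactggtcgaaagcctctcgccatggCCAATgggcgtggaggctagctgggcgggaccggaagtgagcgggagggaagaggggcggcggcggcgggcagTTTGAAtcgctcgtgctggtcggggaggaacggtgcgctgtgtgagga
Ccnb1: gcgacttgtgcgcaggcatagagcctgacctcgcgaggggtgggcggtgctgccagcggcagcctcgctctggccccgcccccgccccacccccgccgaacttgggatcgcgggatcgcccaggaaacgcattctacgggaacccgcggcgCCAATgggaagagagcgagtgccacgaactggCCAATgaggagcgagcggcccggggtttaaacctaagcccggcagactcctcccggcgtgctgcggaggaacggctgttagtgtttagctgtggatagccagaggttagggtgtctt
Cdc20: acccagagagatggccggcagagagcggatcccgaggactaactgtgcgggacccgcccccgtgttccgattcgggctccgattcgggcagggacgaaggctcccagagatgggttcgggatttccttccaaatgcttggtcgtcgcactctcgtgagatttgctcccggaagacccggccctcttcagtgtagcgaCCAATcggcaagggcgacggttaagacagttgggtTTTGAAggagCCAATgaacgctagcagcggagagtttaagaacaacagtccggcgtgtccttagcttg
CCAAT occurred in each of them 2 times, 132 and 71 bases before the start of Cenpf, 99 and 67 bases before that of Ccnb1, and 53 and 8 bases before that of Cdc20. TTTGAA stood 18 bases before the start of Cdc20 and just after that of Cenpf, and these letters were not in the window of Ccnb1. Over 21 promoters found for 20 G2/M genes, 16 (76.2%) held TTTGAA and 19 (90.5%) held CCAAT, against 17.9% and 37.4% of all 32851 promoters of the same length. The motifs can share an end base, and both were in 16 (76.2%), against 6.95% of all promoters.

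Other genes among the 10 largest for neighboring cells were Cabin1, an inhibitor of calcineurin (2.10 and 2.27), Rhpn2 (2.04 and 2.37), and Tbc1d8, of the RAB GTPase regulators (2.43 and 2.02). Rhpn2 had reads in 9 of 17 and 16 of 20 neighboring cells, against 4 of 17 and 6 of 19 non-neighboring cells, and was higher in neighboring cells in 8 of 8 pools by 0.94 to 3.15. The plot of the library pools gives the 10 largest genes of each direction.

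**Figure D4:**
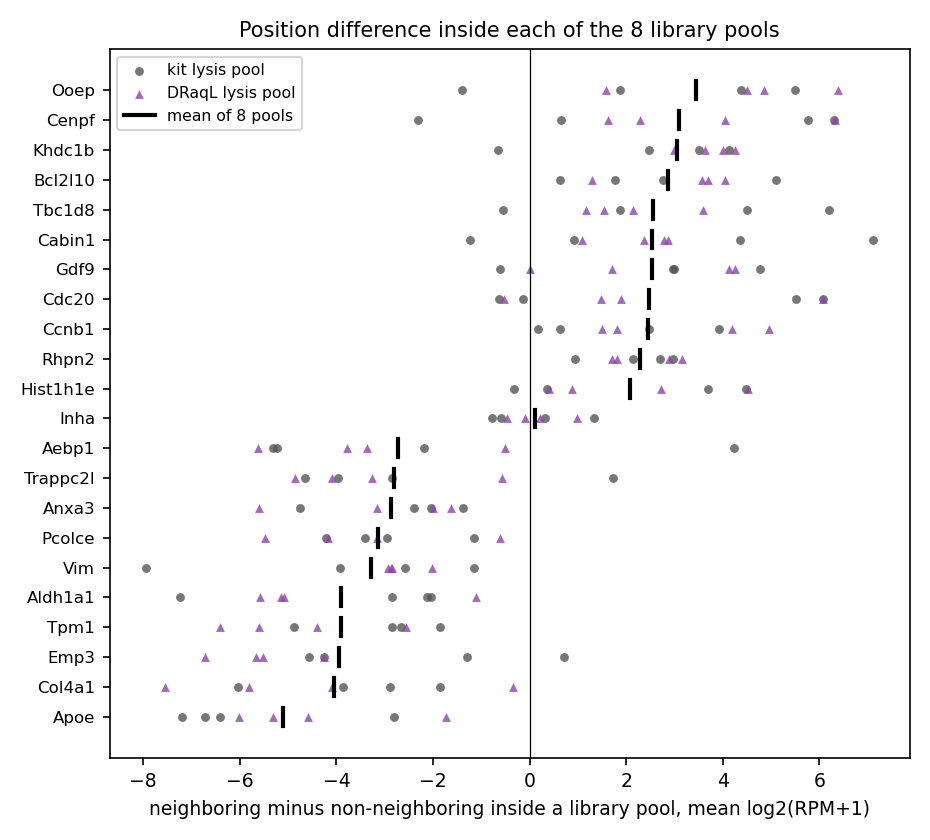
Neighboring minus non-neighboring mean log2(RPM+1) inside each of the 8 library pools (4 kit lysis, 4 DRaqL lysis) for the 10 genes with the largest differences in each direction, Bcl2l10 and Inha, with bars at the mean of 8 pools. Apoe lies below 0 and Bcl2l10, Ccnb1 and Rhpn2 above 0 in all 8 pools, whereas Inha lies on both sides.

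Non-neighboring cells were led by Apoe, the lipid carrier apolipoprotein E. In the kit lysis, 15 of 17 non-neighboring cells had Apoe reads, from 0 to 1066 RPM with a median of 263 RPM, against 4 of 17 neighboring cells, from 0 to 708 RPM with a median of 0. In the DRaqL lysis, 14 of 19 non-neighboring cells had reads, up to 1456 RPM with a median of 83.9 RPM, against 3 of 20 neighboring cells, up to 99.2 RPM. The classes overlapped through few neighboring cells. Reads summed over cells gave 77.2 RPM (95% exact Poisson interval 71.4 to 83.4) in neighboring and 259 RPM (251 to 267) in non-neighboring cells of the kit lysis, and 6.68 RPM (5.23 to 8.40) and 108.9 RPM (103.3 to 114.8) in the DRaqL lysis. The differences were -5.59 and -4.34, and non-neighboring cells were higher in 8 of 8 pools (mean difference -5.10 ± 1.95, SD over 8 pools).

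The other 9 of the 10 largest follow. Aldh1a1, which makes retinoic acid, differed by -3.81 and -4.21, and its medians were 0 RPM in neighboring cells of both lyses and 166 and 64.6 RPM in non-neighboring cells. Tpm1, an actin-binding tropomyosin, differed by -3.14 and -4.73, with medians of 10.1 and 38.4 RPM in neighboring and 99.8 and 525 RPM in non-neighboring cells. Col4a1, a collagen of basement membranes, differed by -3.59 and -4.70, and neighboring cells had at most 18.5 RPM of it. Vim, the intermediate filament vimentin, differed by -3.55 and -2.77, and the membrane protein gene Emp3 by -2.71 and -5.57. Pcolce, an enhancer of collagen processing, differed by -2.84 and -3.50, Aebp1, a collagen-binding protein, by -2.81 and -3.22, Anxa3, a membrane-binding annexin, by -2.94 and -3.00, and Trappc2l, a vesicle tethering factor, by -2.82 and -3.27. In all 8 pools non-neighboring cells had the higher mean of Aldh1a1, Col4a1, Tpm1, Anxa3, Pcolce and Vim, and in 7 of 8 that of Emp3, Aebp1 and Trappc2l.

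Markers of theca cells and stroma moved in the same direction. All 7 of 9 such genes that passed the filter were past 2-fold in non-neighboring cells, with a median of -2.90, and they passed it through the class in which they were high. Cyp17a1, the androgen-producing enzyme of theca cells, had reads in 16 of 36 non-neighboring cells, up to 5020 RPM, and in 7 of 37 neighboring cells, up to 5.63 RPM. Dcn, the matrix proteoglycan decorin, was at 0 in all neighboring cells of the kit lysis and reached 697 RPM in non-neighboring cells. Col3a1, a fibrillar collagen, reached 1454 and 2737 RPM in non-neighboring cells of the lyses and at most 42.9 RPM in neighboring cells. Col1a2, another fibrillar collagen, reached 1830 and 2889 RPM, against 157 RPM, and Acta2, smooth muscle actin, 1095 and 256 RPM, against 5.61 RPM.

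Summed over the 9 genes, neighboring cells had medians of 4.06 RPM (0 to 86.4) in the kit lysis and 6.29 RPM (0 to 157) in the DRaqL lysis. Non-neighboring cells had medians of 131 RPM (0 to 5089) and 532 RPM (0 to 11194). The sum differed by -3.45 and -4.83 on the log2 scale, and non-neighboring cells were higher in 8 of 8 pools. At least 1000 RPM were reached by 13 of 36 non-neighboring cells (36.1%, 95% Clopper-Pearson interval 20.8 to 53.8%), 5 in the kit lysis and 8 in the DRaqL lysis. None of 37 neighboring cells reached it, which allows a share of up to 8.11% by the limit of 3 counts and of 9.49% by the upper Clopper-Pearson bound. These 13 cells had between 362 and 4192 RPM of Inha, with a median of 1779 RPM, and between 1952 and 8948 RPM over the granulosa markers. They came from 6 of 8 library pools, and 11 of them had Cyp17a1 reads.

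The genes led by Apoe were recomputed without those 13 cells. Of the 486 genes past 2-fold in non-neighboring cells, 257 remained past it (52.9%), and of the 232 in neighboring cells, 167 did (72.0%). Apoe then differed by -5.54 and -3.07, Aldh1a1 by -2.72 and -3.09, Tpm1 by -2.66 and -4.32, Vim by -3.62 and -1.30, and Anxa3 by -3.04 and -3.56. Pcolce (-1.23 and -1.28) and Col4a1 (-1.96 and -2.16) lay closer to 0. Without the 23 cells above 100 RPM, which left 8 and 6 non-neighboring cells, 187 and 117 genes remained. Apoe then differed by -5.72 and -2.15 and Col4a1 by -0.63 and -0.55. The G2/M list kept a positive difference in 22 of 23 genes with 11 past 2-fold without the 13 cells, and in 21 of 23 with 7 past 2-fold and a median of 1.08 without the 23. The part of theca and stroma material in the non-neighboring cells was not tested.

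Genes of the mural and luteal fates and of steroid synthesis were mostly higher in non-neighboring cells. Cyp11a1, which makes pregnenolone from cholesterol, differed by -1.71 and -4.40, and Lhcgr, the LH receptor, by -1.01 and -2.83. These were the 2 of 5 tested mural-type genes and the 2 of 12 tested steroidogenesis genes past 2-fold, where 4.68% of all genes were. Hsd3b1, which makes progesterone and androstenedione, differed by -0.26 in the kit lysis and -5.27 in the DRaqL lysis. Its medians were 181 and 357 RPM in neighboring and non-neighboring cells of the kit lysis, and 0 and 220 RPM in those of the DRaqL lysis, so that the lyses gave different pictures. Without the 13 cells, 2 mural-type genes passed the filter, with 1 in each direction and 0 past 2-fold, and 0 of 10 steroidogenesis genes were past 2-fold. Of 5 genes listed for atretic granulosa cells, all 5 were higher in non-neighboring cells and 2 were past 2-fold, Cald1, an actin-binding caldesmon (-2.53 and -4.39), and Itih5, a stabilizer of hyaluronan matrix (-2.05 and -2.67). Without the 13 cells 4 of these 5 genes were past 2-fold, with a median of -1.87, but without the 23 cells above 100 RPM 1 was, with a median of -0.63, and Cald1 differed by -0.45 and -0.81.

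Transcripts that mark cumulus cells and the response to oocyte factors were less uniform. Of 5 cumulus-type genes, 3 had a positive difference and 1 was past 2-fold, where 2.23% of all genes were. This was Slc18a2, a monoamine transporter (1.44 and 1.23), with medians of 1421 RPM in neighboring and 771 RPM in non-neighboring cells of the kit lysis, and of 603 and 580 RPM in the DRaqL lysis. It was not past 2-fold without the 23 cells above 100 RPM of theca and stroma genes (0.74 and 0.17). Npr2, the receptor that keeps the oocyte in meiotic arrest through cGMP, differed by 0.91 and 1.68, and Amh, the anti-Müllerian hormone, by -0.66 and -0.18.

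Among 23 tested genes of the TGF-β family, 9 had a positive difference and the median was -0.09. Fst, follistatin, which binds activin, was past 2-fold in neighboring cells (1.08 and 1.18), but not without the 13 cells with theca and stroma transcripts (0.65 and 0.42). The receptor-regulated Smad2 (-1.12 and -1.30) and Smad5 (-1.56 and -1.26) and the BMP target Id2 (-1.31 and -1.66) were past 2-fold in non-neighboring cells. The inhibitory Smad7 differed by 0.79 and 1.54, and Smad6 by -0.02 and 2.57. Bmpr2, the receptor that binds GDF9 and BMP15, differed by 1.31 and 0.05.

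Of 11 genes of junctions and transzonal projections, 5 had a positive difference and 1 was past 2-fold. This was Myo10, the myosin at the tips of filopodia (1.33 and 1.31), which was also past 2-fold without the 13 cells (1.23 and 1.05) but not without the 8 cells rich in oocyte transcripts (0.86 in the kit lysis). Gja1, connexin 43, which joins granulosa cells to each other, differed by 0.28 and 0.14. Hey2, a target of Notch signalling (1.12 and 1.53), and Pgk1, a glycolytic enzyme (1.05 and 2.23), were the single genes past 2-fold of 7 and 16 tested in their lists. Hey2 was not past it without the 13 cells (0.83 and 0.77), and it differed by -0.99, -1.61, -0.07 and 1.65 in the other sets of granulosa samples described below. None of 10 Wnt genes and none of 10 genes of polycomb repressive complex 2 was past 2-fold, where 2.23% and 4.68% of all genes were. Ribosomal protein genes lay near the median of all genes, at -0.14 over 82 genes.

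The study's own lists for this comparison, 35 genes for neighboring and 97 genes for non-neighboring cells, were drawn from single cells of the same ovary amplified by DRaqL-SC3-seq, which are other cells than these 73. Of 33 tested genes of the former list, 25 were higher in neighboring cells, with a median of 0.90. Past 2-fold were 14 of them, where 2.23% of all genes were. The 14 included the 7 panel genes named above and Fbxw14, Tcl1 and Oas1c. They also included Serpina3a, a protease inhibitor (1.34 and 2.49), Ube2t, a ubiquitin enzyme of DNA repair (1.10 and 1.75), and the unnamed genes Gm2042 (1.34 and 3.01) and Gm15698 (1.52 and 3.24). Without the 8 cells rich in oocyte transcripts, 4 of 28 tested genes were past 2-fold.

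Of the 97 genes, 66 were higher in non-neighboring cells, 8 were past 2-fold there and 1, Rmnd1, a mitochondrial protein gene, was past 2-fold in neighboring cells (1.16 and 1.09). Their median was -0.24, against -0.15 for all genes tested. It was -0.62 in the kit lysis and -0.07 in the DRaqL lysis, against -0.17 and -0.14, so that the list lay below all genes with the kit and above them with DRaqL. A share of 8.25% past 2-fold stood against 4.68% of all genes. They included the actin crosslinker Flna (-1.61 and -3.05), Itih5, the zinc finger gene Tshz2 (-1.28 and -1.84), the matrix gene Sned1 (-1.12 and -1.58), the phosphodiesterase Pde7b (-1.13 and -1.36), the protocadherin Pcdh7 (-1.01 and -3.04) and Tmem205 (-1.68 and -2.15).

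Chromatin regulators that the study names on the latter list had differences of either sign, and none of the 6 was past 2-fold. Nsd1, a histone H3K36 methyltransferase, came closest (-1.90 and -0.95), with medians of 56.2 and 96.8 RPM in neighboring and 182 and 154 RPM in non-neighboring cells, and with the higher mean in non-neighboring cells in 8 of 8 pools. Suz12, a core subunit of polycomb repressive complex 2, differed by -0.24 in the kit lysis and 1.17 in the DRaqL lysis. These are RNA values, and the study also reports a higher SUZ12 protein signal in non-neighboring cells of antral follicles by immunofluorescence. Ogt, a sugar transferase of nuclear proteins, differed by 0.72 and -1.27, and Jarid2, Phf21a and Smarca5 by between -0.94 and 0.58.

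Oocytes that carried the same in-line indices gave the comparison of index sets without the position. In the kit lysis 5 oocytes with indices 1 to 5 stood against 5 with 6 to 10, and in the DRaqL lysis 5 against 4, all from secondary-to-antral follicles. Of 13188 genes tested, 0.485% and 0.948% were past 2-fold in the lower and the upper index set in both lyses. Of the genes past 2-fold in neighboring granulosa cells, 0 of 229 tested in oocytes were past it in the same index set, and of those in non-neighboring cells, 4 of 422 were. Their median index differences in oocytes were -0.06 and -0.04, against -0.04 for all genes.

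The same genes were set beside the position differences of 4 other sets of alcohol-fixed granulosa samples of the series, whose tables were normalized separately. These were 57 single cells by DRaqL-SC3-seq, 37 by LCM-seq, 34 by DRaqL-Smart-seq2 and 14 pools of 10 cells by DRaqL-SC3-seq. Their values are given in this order. From the DRaqL-SC3-seq single cells the study had left out granulosa cells whose profiles were mixed with those of oocytes. No SMART-Seq v4 cell was left out on that ground here. The study states that its single-cell methods for sections were compared on the same ovary, so these sets are not shown to come from other animals. Laser-captured granulosa cells of a proestrus mouse are also in the series and were not used. LCM-seq and DRaqL-Smart-seq2 cells share the tie between index set and position, whereas DRaqL-SC3-seq samples carried separate indices. All 12 tested panel genes were higher in neighboring cells in each of the 4 sets, with medians of 2.24, 5.04, 2.56 and 5.49. Gdf9 differed by 3.34, 5.95, 2.62 and 5.99, and Bcl2l10 by 3.53, 5.54, 4.49 and 5.72. The panel genes on the study's list, Gdf9 and Bcl2l10 among them, were chosen on the DRaqL-SC3-seq single cells, so their direction there is fixed by that choice.

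**Figure D5:**
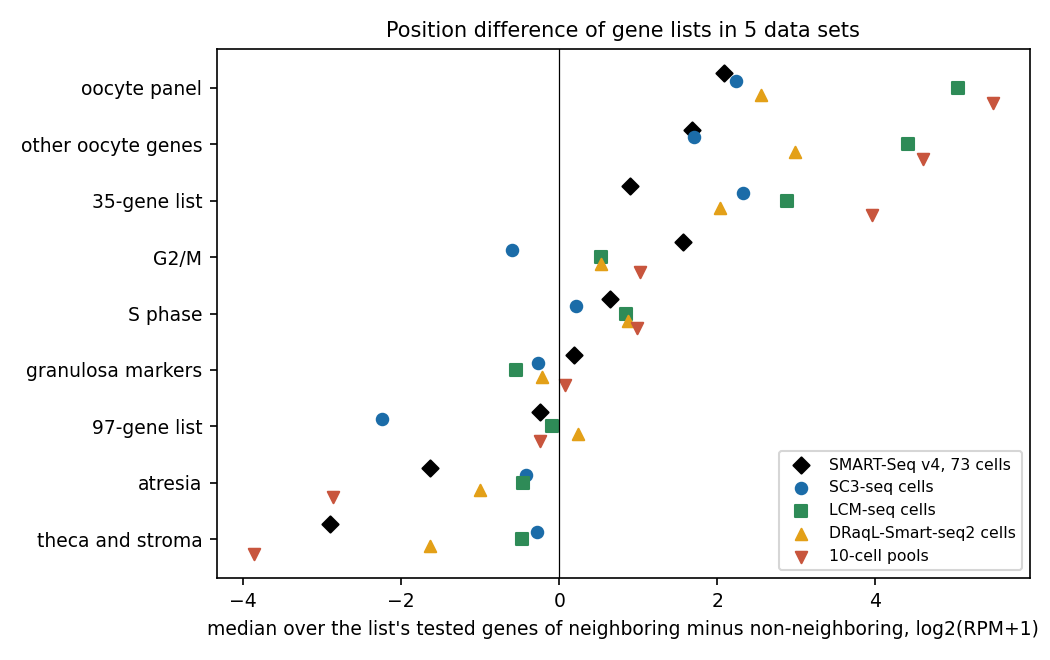
Median over the tested genes of 9 lists of the position difference, neighboring minus non-neighboring log2(RPM+1), in the 73 SMART-Seq v4 cells and in 4 other sets of granulosa samples. Oocyte lists lie above 0 and theca and stroma genes below 0 in all 5 sets, whereas the G2/M list lies at -0.59 in SC3-seq cells and above 0 in the others.

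The G2/M list differed between the sets. It was higher in neighboring cells in 6 of 23 genes of DRaqL-SC3-seq cells, with a median of -0.59, and in 20, 18 and 20 of 23 genes of the other sets, with medians of 0.53, 0.53 and 1.03. In DRaqL-SC3-seq cells the G2/M sum had medians of 2690 RPM in neighboring and 3649 RPM in non-neighboring cells, which is the opposite order. Ccnb1 and Cenpf themselves were higher in neighboring cells in all 4 sets, by 0.50, 1.21, 1.22 and 1.88 for Ccnb1 and by 0.35, 1.58, 0.87 and 1.63 for Cenpf. Cdc20 (-0.51, 0.17, 0.03 and 1.03) and Mki67 (-0.52, 0.53, 1.13 and 1.03) were lower in neighboring DRaqL-SC3-seq cells, as were most genes of the list.

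Apoe was lower in neighboring cells in all 4 sets (-0.96, -0.80, -1.65 and -2.96), and so were Aldh1a1 (-0.65, -1.26, -2.64 and -3.03) and Hsd3b1 (-3.09, -6.59, -6.90 and -5.86). Theca and stroma genes had medians of -0.29, -0.47, -1.63 and -3.87, with the highest sums in non-neighboring samples of every set. The median sums did not all follow. They were 1.87 RPM in neighboring and 0.80 RPM in non-neighboring DRaqL-SC3-seq cells, and 0 in both classes of LCM-seq cells. In DRaqL-Smart-seq2 cells they were 1.98 and 45.3 RPM, and in the pools of 10 cells 0.55 and 687 RPM. Of the 232 genes past 2-fold in neighboring SMART-Seq v4 cells, 121, 200, 196 and 186 were higher in neighboring cells of the 4 sets, where 38.5%, 60.2%, 56.2% and 47.7% of all tested genes were. Of the 486 in non-neighboring cells, 336, 292, 326 and 352 were higher in non-neighboring cells (69.1%, 60.1%, 67.1% and 72.4%), where 61.5%, 39.8%, 43.8% and 52.3% of all tested genes were. Of the 97 genes, 53, 31 and 56 were higher in non-neighboring cells of the last 3 sets (54.6%, 31.96% and 57.7%), that is above, below and near the shares of all genes. Suz12 differed by -0.57, 1.16 and 3.14 in these.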

How the data were processed

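The authors deposited read counts per gene, made with fastp 0.20.0, cutadapt 1.16, HISAT2 2.1.0 on GRCm38 and HTSeq 0.10.0, counting reads within 10 kb of gene 3′ ends. No raw reads were reprocessed. Counts of the 73 granulosa cells and 33 oocytes were scaled to RPM over 22060 of 45905 genes, those that code for proteins, and compared as log2(RPM+1). Differences were taken inside each lysis and averaged with equal weight, since both classes came from 1 ovary and cells are not replicates. Genes with a mean of at least 1 were kept. Named genes were Gdf9, Bcl2l10 and Inha, the oocyte panel, the granulosa markers and 13 genes the study names. The 10 largest differences per direction among genes with a mean of at least 2 were added, as were members of the study's lists past 2-fold. From each other list, up to 4 members with the largest combined differences and a mean of at least 2 were named. The text also gives further list members. The members and lists were chosen with earlier results of these data known. Scripts ran in Python 3.11.15 with pandas 2.3.3 and scipy 1.17.1, and TMM factors came from edgeR 4.0.16. They were tested on simulated data. Doublets were not called, since each library was labelled as 1 microdissected cell. The study could not exclude contamination by adjacent cells of the section. Promoters came from RefSeq tables. Other methods' tables were used only for the comparison across methods, and the tables of other cells or of exons and junctions were not used. Values of 1 gene among those named by the rule are not reported here.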

Additional observations from a re-analysis of the deposited data

Results flagged for a closer look

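In the pools of 10 granulosa cells amplified by DRaqL-SC3-seq, 1 of 7 neighboring pools stood far from the others in theca and stroma transcripts. It had 1749 RPM over the 9 genes, the nearest other neighboring pool had 6.54 RPM and the lowest had 0. Of 9 groups examined in this way 1 stood out, and chance flags about 1 in 20 groups.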

How the results depend on the processing

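No paired analysis was possible because no result comes from a test, and replicate numbers only name cells. Differences taken within library pools, which hold both classes, are given as values. The counts of 232 and 486 genes past 2-fold became 41 and 79 with log2(RPM+10) and 78 and 110 with a mean of at least 4. They were 242 and 498 with reads thinned to 155613 per cell, 219 and 487 with TMM factors, and 261 and 465 from differences within library pools. Leaving out each library pool in turn gave 187 to 318 and 450 to 599. The correlation between lyses, 0.185, was 0.090 to 0.212 in the same runs, the lowest without library pool 6, 0.119 without both cell sets and 0.066 without cells of at least 100 RPM of theca and stroma genes. With each pool left out, the median of the 35 genes (0.81 over all members) lay between 0.69 and 1.21, that of the 97 genes between -0.47 and -0.10, the panel difference between 3.42 and 4.67, and the difference in genes detected between -713.6 and -183.4. Beyond those ranges, log2(RPM+10) gave 0.48 for the 35 genes and 3.16 for the panel, and the log2 ratio of mean RPM gave 1.42 for the 35 and -0.013 for the 97 genes. At 1% of the median oocyte, 59.5% of neighboring cells held oocyte transcripts, and at 50% 2.70% did and 0 of the non-neighboring cells. Of 3003 values of 143 genes under 21 alternatives, 2978 moved by less than the spread and 22 moved by more. In 3, all of genes past 2-fold, the sign changed. These 3 were Col1a2, at 0.0012 without theca and stroma cells of 1000 RPM and 0.22 without those of 100 RPM, and Col3a1, at 0.11 without the latter. Sign changes of genes not past 2-fold were not counted in the 3. Gja1, for example, went from 0.21 to -0.40 without both cell sets and to -0.31 without theca and stroma cells of 100 RPM. The cause was not tested, and the alternatives on theca and stroma cells were chosen after seeing the data.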

Other observations

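Among genes that do not code for proteins, 3031 were tested, of which 33 (1.09%) were past 2-fold in neighboring and 53 (1.75%) in non-neighboring cells. Mir16-2, listed as a microRNA gene and counted here from reads of polyadenylated RNA near its 3′ end, differed by 2.78 in the kit lysis and 2.86 in the DRaqL lysis and was higher in neighboring cells in 7 of 8 library pools. Which transcript these reads came from was not tested. Cd63-ps, a pseudogene, differed by -2.27 and -1.90, with the higher mean in non-neighboring cells in 8 of 8 pools. How its reads were split from those of its parent gene is uncertain.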
